A study of Mus musculus with 12 samples.

Results

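The genes that make, take up, store and export cholesterol, together with those that control the SREBP transcription factors, were examined in mouse cumulus cells, which wrap the oocyte within the antral follicle. The set was a list of 31 genes named by their function. A gene's rows in the deposited tables were found by its Ensembl ID. Of the 31 genes, 28 were listed in at least 1 library and 27 were listed in all 6 libraries, and these 27 were tested among 9022 genes. RNA came from cumulus cells of Kunming mice, a strain named in the labels, that received FSH and FBS over 18 h (3 libraries) or were labelled untreated (3 libraries). FSH is follicle-stimulating hormone and FBS is fetal bovine serum. They were given together, so the share of each cannot be told apart, and the labels give no culture time for the untreated cells. The labels do not say which separate cultures or animals the libraries came from, or whether the oocyte had been removed from the complexes that gave the untreated cells. The cells carry no stated mutation or transgene in either group.

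Cholesterol is built from acetyl-CoA. The early enzymes of the pathway lead through mevalonate to squalene, and the late enzymes turn squalene into lanosterol and then into cholesterol. When sterol is scarce in the endoplasmic reticulum, the escort protein SCAP carries SREBP2 to the Golgi apparatus, where the site-1 and site-2 proteases release the part that enters the nucleus and turns on genes of synthesis and uptake, and the INSIG proteins hold SCAP back when sterol is plentiful. In the ovary, cholesterol is the substrate of progesterone, and the mouse oocyte is known to make little cholesterol itself and to receive it from the cumulus cells.

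Values are FPKM (mapped fragments scaled by transcript length and by the size of the library) as the authors deposited them for transcript events. First-exon values and last-exon values were summed for each gene, and the larger sum was its level. The libraries listed 10475 to 11398 genes after FSH and FBS and 10786 to 11552 genes in untreated cells, and the depth is unknown because the files hold no counts. The summed gene FPKM was 390966 in FSH and FBS library 3, against 264904 to 274530 in the other 5 libraries. Libraries 1 and 2 of each group were near repeats. Over the 27 cholesterol genes, the median absolute log2 difference between them was 0.0853 for FSH and FBS libraries and 0.0788 for untreated libraries, while pairs that include library 3 differed by 0.356 to 0.563. The near repeats were therefore entered as their average, which leaves n = 2 in each group. The p-values reflect the spread of these few samples alone, and that spread may be technical. Of 11 markers of cumulus and granulosa cells 8 to 10 were listed after FSH and FBS and 9 in each untreated library, with Inha at 276 to 282 FPKM and 350 to 502 FPKM. Of the 8 tested ones, Wt1 was called lower, at 0.419, 0.145 and 0.0063 FPKM after FSH and FBS, against 8.04, 9.03 and 3.73 FPKM in untreated cells (limma adjusted p = 0.029), and none was called higher. Without a call, Fshr, Amhr2 and Inha lay below in all 3 treated libraries, and Amh, Nr5a2 and Fst lay above. Summed markers of other cells were lower after FSH and FBS for theca and stroma (16.5 to 17.5 FPKM, against 61.4 to 76.5 FPKM in untreated cells, mostly Acta2) and for leukocytes (2.96 to 7.19 FPKM, against 8.97 to 12.6 FPKM). Endothelial markers were higher, at 2.58 to 3.37 FPKM, against 0 to 0.454 FPKM in untreated cells, and Cdh5 was listed in all 3 treated libraries and in no untreated one. Erythroid markers summed to 0.277 to 1.92 FPKM after FSH and FBS, against 0.366 to 0.629 FPKM in untreated cells. Of 12 oocyte markers, 1, 1 and 4 were listed in FSH and FBS libraries 1 to 3, summing to 0.260, 0.157 and 11.7 FPKM, against 5 to 7 markers summing to 11.9 to 14.9 FPKM in untreated cells. The oocyte genes Bmp15, Zp1 and Zp2 were listed in no library. The part of these cells in the results that follow was not tested. In RNA from many cells, fewer cells of a type and less RNA per cell cannot be told apart.

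After FSH and FBS, 6 of the 27 tested cholesterol genes were higher and 0 were lower (limma on log2(FPKM + 1), Benjamini-Hochberg adjusted p below 0.05 over all 9022 genes). Over all genes tested, 152 were higher, or 1.68%, and 62 were lower, or 0.687%, which makes 2.37% in either direction. The 6 genes were Hmgcs1, Sqle, Cyp51 and Msmo1 among the synthetic enzymes, Scarb1 for uptake and Soat1 for storage. At an unadjusted p below 0.05 there were 19 of 27, against 1485 of 9022 genes, in either direction. The median log2 fold change, FSH and FBS over untreated, was 1.52 over the 27 genes and 0.24 over all genes tested. Rescaling the libraries removed that shift of all genes, so each log2 fold change below lies 0.24 above its place relative to the median gene, and 25 of the 27 lay above the median gene. In 20 of the 27, all 3 FSH and FBS libraries lay above all 3 untreated libraries, an order that 29.4% of all genes tested showed. They all lay below in 0 of the 27, against 9.54% of all genes. The remaining 7 overlapped. The count of 6 rested on the libraries numbered 3: it was 14 without FSH and FBS library 3. Without untreated library 3 it was 2, Msmo1 and Scarb1. With the libraries rescaled by median of ratios, equal sums or quantiles it was 2 in each case, again Msmo1 and Scarb1, and over all genes median of ratios called 49 higher and 41 lower. With the replicate number as a block, a pairing that the labels do not state, it was 20, against 1040 genes higher among all tested (11.5%).

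**Figure D1:**
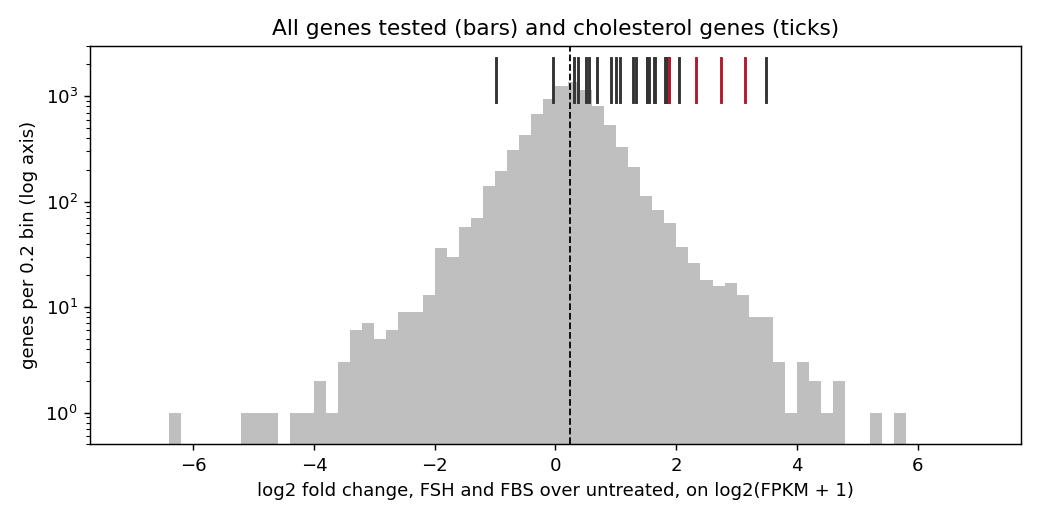
Log2 fold change of FSH and FBS over untreated for all 9022 genes tested (grey bars, genes per bin on a log axis) and for the 27 cholesterol genes (ticks, red where called higher). The dashed line is the median of all genes at 0.24. All ticks but 2, Mbtps2 at -0.98 and Npc1 at -0.04, lie to its right.

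Promoters are given first, because the pathway is known for its shared control by SREBP2, which binds sterol regulatory elements and usually acts beside NF-Y, a factor that binds CCAAT. RefSeq promoters (GRCm38.p6, from 250 bases before to 50 after the start of transcription) were at hand for 24 of the 31 genes. The called genes Sqle and Scarb1 had none. Each promoter was searched on both strands for TCACNCCAC, the core of a classical sterol regulatory element, and for CCAAT, whose reverse complement is ATTGG. Printed 5′ to 3′ along the gene's strand are the called genes with an entry, then Insig1 and Srebf2, which belong to the control of the pathway. Capitals mark matches to either motif.
Hmgcs1 promoter, chr13:119690101-119690400, plus strand: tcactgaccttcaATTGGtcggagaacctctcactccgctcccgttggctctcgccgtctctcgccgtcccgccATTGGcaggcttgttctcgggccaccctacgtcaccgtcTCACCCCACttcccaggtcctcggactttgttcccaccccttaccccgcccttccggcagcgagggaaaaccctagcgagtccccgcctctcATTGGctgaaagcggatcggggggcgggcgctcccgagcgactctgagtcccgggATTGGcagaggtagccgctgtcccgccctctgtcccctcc
Msmo1 promoter, chr8:64733529-64733828, minus strand: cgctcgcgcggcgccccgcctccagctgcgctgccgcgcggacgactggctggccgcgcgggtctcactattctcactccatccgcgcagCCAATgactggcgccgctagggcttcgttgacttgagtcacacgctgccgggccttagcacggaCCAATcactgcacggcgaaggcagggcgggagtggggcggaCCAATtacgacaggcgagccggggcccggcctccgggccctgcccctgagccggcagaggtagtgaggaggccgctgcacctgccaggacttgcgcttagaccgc
Cyp51 promoter, chr5:4104648-4104947, minus strand: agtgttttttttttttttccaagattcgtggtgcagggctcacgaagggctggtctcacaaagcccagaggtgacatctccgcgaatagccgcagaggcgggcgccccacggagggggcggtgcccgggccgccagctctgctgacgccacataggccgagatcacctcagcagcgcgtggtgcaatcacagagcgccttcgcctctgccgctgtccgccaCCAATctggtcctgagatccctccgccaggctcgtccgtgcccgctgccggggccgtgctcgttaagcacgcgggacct
Soat1 promoter, chr1:156474279-156474578, minus strand: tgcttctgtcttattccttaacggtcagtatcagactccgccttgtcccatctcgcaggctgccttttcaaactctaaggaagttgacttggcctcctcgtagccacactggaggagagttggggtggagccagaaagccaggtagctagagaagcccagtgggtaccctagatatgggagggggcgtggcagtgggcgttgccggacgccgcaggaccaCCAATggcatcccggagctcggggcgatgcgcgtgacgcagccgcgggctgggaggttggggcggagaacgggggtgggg
Insig1 promoter, chr5:28071162-28071461, plus strand: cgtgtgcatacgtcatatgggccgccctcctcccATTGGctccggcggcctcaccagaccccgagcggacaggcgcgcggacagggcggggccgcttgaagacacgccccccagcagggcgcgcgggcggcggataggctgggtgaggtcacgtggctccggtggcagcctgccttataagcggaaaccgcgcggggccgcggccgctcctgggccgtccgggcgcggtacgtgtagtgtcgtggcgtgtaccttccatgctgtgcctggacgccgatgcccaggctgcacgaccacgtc
Srebf2 promoter, chr15:82147019-82147318, plus strand: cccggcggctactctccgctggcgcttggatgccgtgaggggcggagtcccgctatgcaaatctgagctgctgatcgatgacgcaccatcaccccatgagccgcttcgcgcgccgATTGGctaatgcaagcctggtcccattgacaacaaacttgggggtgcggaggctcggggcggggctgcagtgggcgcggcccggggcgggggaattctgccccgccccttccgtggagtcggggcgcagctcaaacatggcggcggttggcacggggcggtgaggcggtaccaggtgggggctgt
The only match to TCACNCCAC was in the promoter of Hmgcs1, where TCACCCCAC began at position -137 from the start, with a CCAAT box in reverse at positions -176 and -45 on its 2 sides. That is 1 of 24 genes, or 4.17%, against 1.44% of the 27025 genes of the table. CCAAT was in at least 1 promoter of 19 of the 24 genes (79.2%), against 41.1% of the genes of the table; per promoter the shares were 63.3% and 37.4%. Among the 15 enzymes with an entry 14 held it (93.3%), all but Acat2. Msmo1 held 3 copies, at positions -160, -96 and -55, and Cyp51 and Soat1 held 1 each, at -29 and -30. Mbtps1, Mbtps2, Scap and Abca1 held neither motif, nor did the 2 promoters of Insig2 that lie closest together, although the remaining one held CCAAT 3 times. A match is a run of letters and not a bound site, and no match says only that these letters are not in this window.

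The early enzymes, which run from acetyl-CoA to squalene, were represented by 7 tested genes of 8, and 1 of them rose. Their median log2 fold change was 1.65 and all 7 lay above the median gene. Hmgcs1 (ENSMUSG00000093930), the HMG-CoA synthase, had 83.7, 90.1 and 56.6 FPKM after FSH and FBS, against 21.4, 21.0 and 15.7 FPKM in untreated cells. All 3 treated libraries lay above the untreated ones, with library 3 lowest in both groups. The means were 71.7 ± 21.4 and 18.4 ± 3.94 FPKM (SD, n = 2 each), 3.89-fold apart, and the log2 fold change was 1.89 with an SE of 0.38 (limma adjusted p = 0.048). This call stood closest to the threshold and was lost in 11 of 21 alternatives, where the adjusted p reached 0.31. Its main first exon was listed at chr13:119690330-119690513 on the plus strand, in the files' own coordinates, whose build is not given in the sources used here.

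Idi1, which isomerises isopentenyl diphosphate, had the largest fold change of the 27 genes and was not called. It had 37.0, 37.5 and 26.0 FPKM after FSH and FBS, against 6.57, 6.99 and 0.0709 FPKM in untreated cells. The low untreated library 3 had no entry for the first exon that carried nearly all of the signal elsewhere, and no last exon of Idi1 was listed in any library. The log2 fold change was 3.48 with an SE of 0.80 (limma adjusted p = 0.073). In libraries 1 and 2 alone the log2 ratio was 2.30, against 4.66 in library 3. Fdps, farnesyl diphosphate synthase, had 116, 129.8 and 251 FPKM after FSH and FBS, against 29.8, 30.4 and 58.6 FPKM in untreated cells. Here library 3 was the highest of its group on both sides, and the log2 fold change of 2.04 (SE 0.50) had a limma adjusted p of 0.087. The ID of Fdps also holds first and last exons at the place of its neighbour Rusc1. Its leading first exon carried 91.8% to 97.6% of the first-exon sum. The rest includes first exons at Rusc1, so the value of Fdps is uncertain to that extent.

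The other early enzymes were not called. Mevalonate kinase, Mvk, had 19.2 to 19.9 FPKM after FSH and FBS, against 3.68 to 7.83 FPKM in untreated cells, with a log2 fold change of 1.65 (SE 0.40, limma adjusted p = 0.087). Acat2, the cytosolic acetoacetyl-CoA thiolase, had 26.1 to 38.5 FPKM, against 9.09 to 9.42 FPKM, and a log2 fold change of 1.63 (SE 0.35, limma adjusted p = 0.059). Acat2 lies opposite Tcp1 and beside its near-copy Acat3, and its ID holds events at Acat3 in some libraries, so reads of these genes may be split. Squalene synthase, Fdft1, had a log2 fold change of 1.28 (SE 0.36, limma adjusted p = 0.13), with all treated libraries above the untreated. Phosphomevalonate kinase, Pmvk, overlapped between groups (12.05 to 25.9 FPKM, against 4.61 to 12.96 FPKM), with a log2 fold change of 1.003 (SE 0.49, limma adjusted p = 0.36). Mvd, the decarboxylase between Pmvk and Idi1, was listed in no library.

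**Figure D2:**
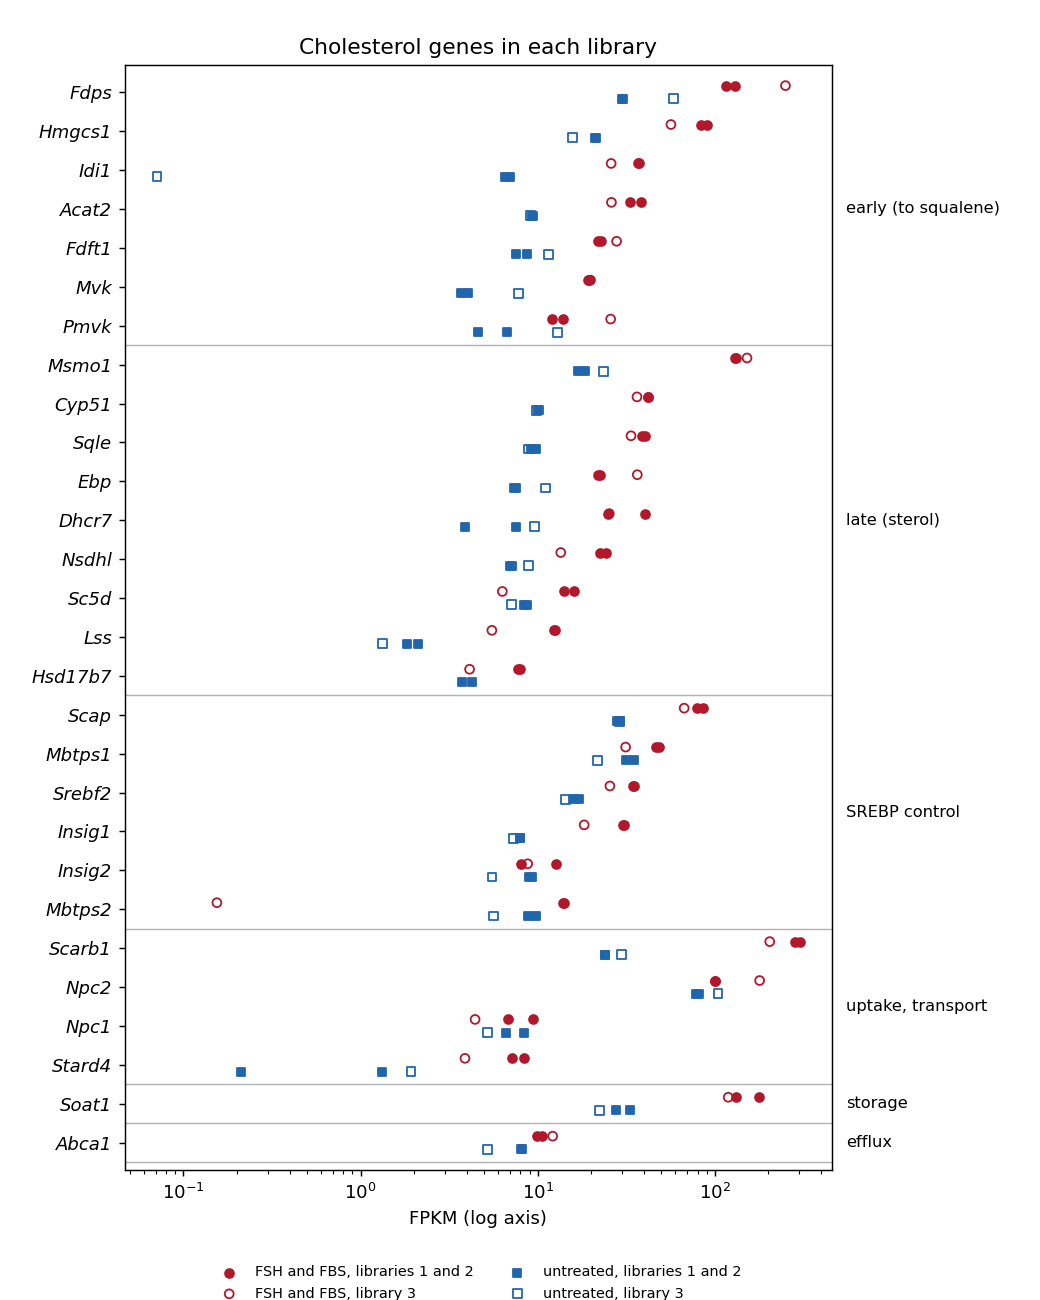
FPKM (log axis) of each cholesterol gene listed in any library, grouped by step, in each library of FSH and FBS (red circles) and untreated cells (blue squares), with library 3 of each group as an open mark. Libraries 1 and 2 lie close together for most genes, for example at 303 and 284 FPKM after FSH and FBS for Scarb1, but not for Stard4 and Dhcr7 in untreated cells. Single low marks include untreated library 3 for Idi1 (0.0709 FPKM), FSH and FBS library 3 for Mbtps2 (0.155 FPKM) and untreated library 2 for Stard4 (0.212 FPKM).

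Of the late enzymes, 8 of 10 were tested and 3 rose, with a median log2 fold change of 1.82. Msmo1 (ENSMUSG00000031604), which oxidises the methyl groups at C4 of the sterol ring, had 131, 132 and 152 FPKM after FSH and FBS, against 16.8, 18.5 and 23.5 FPKM in untreated cells. The groups lay far apart and library 3 was the highest in each. The means were 142 ± 14.6 and 20.6 ± 4.14 FPKM (SD, n = 2 each), 6.90-fold apart, and the log2 fold change was 2.74 with an SE of 0.36 (limma adjusted p = 0.00998). Relative to the median gene it was 2.50. The call held in all 21 alternatives, where the adjusted p ranged up to 0.049. Its main first exon was listed at chr8:64733508-64733792 on the minus strand.

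Sqle (ENSMUSG00000022351), squalene epoxidase, had 38.6, 40.2 and 33.7 FPKM after FSH and FBS, against 9.84, 9.17 and 8.93 FPKM in untreated cells. Cyp51 (ENSMUSG00000001467), the lanosterol demethylase, had 41.8, 42.0 and 36.4 FPKM, against 10.1, 10.2 and 9.88 FPKM. The untreated libraries were nearly equal for both enzymes, and library 3 was the lowest of each group. Sqle was 3.97-fold and Cyp51 3.92-fold higher by means, with log2 fold changes of 1.87 (SE 0.34) and 1.86 (SE 0.34) and a limma adjusted p of 0.031 for each. Both calls were lost without untreated library 3, under each rescaling and with first exons alone, where the adjusted p went up to 0.18. With first exons alone the log2 fold changes themselves stayed at 1.87 and 1.86. The level of Cyp51 rests on first exons, because its last-exon sums were only 0.0809 to 0.562 FPKM. It was therefore not tested with last exons alone. The main first exons were listed at chr15:59315077-59316129 on the plus strand for Sqle and chr5:4104134-4104746 on the minus strand for Cyp51.

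The other 5 tested late enzymes did not pass. Dhcr7, which makes cholesterol from 7-dehydrocholesterol, came closest, with 24.9, 40.2 and 25.4 FPKM after FSH and FBS, against 7.56, 3.89 and 9.57 FPKM in untreated cells; its log2 fold change was 1.82 (SE 0.38, limma adjusted p = 0.055). For Dhcr7 even libraries 1 and 2 of a group differed. Lanosterol synthase, Lss, had the lowest level of the tested enzymes, 5.52 to 12.5 FPKM, against 1.33 to 2.12 FPKM, and a log2 fold change of 1.83 (SE 0.45, limma adjusted p = 0.090). The sterol isomerase Ebp had a log2 fold change of 1.55 (SE 0.40, limma adjusted p = 0.10), and Nsdhl, which removes the C4 carboxyl group, one of 1.07 (SE 0.39, limma adjusted p = 0.24). In Lss, Ebp and Nsdhl every treated library lay above every untreated one.

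Sc5d, the C5 desaturase that acts just before Dhcr7, overlapped between the groups. It had 15.96, 14.1 and 6.32 FPKM after FSH and FBS, against 8.34, 8.69 and 7.12 FPKM in untreated cells. Libraries 1 and 2 were higher after treatment, library 3 was not, and the log2 fold change was 0.30 (SE 0.45, limma adjusted p = 0.78). The ratio of Msmo1 to Sc5d was 8.21, 9.37 and 24.1 after FSH and FBS, against 2.02, 2.12 and 3.30 in untreated cells, a difference given without a test. Hsd17b7, the 3-ketosterol reductase, was listed at 7.90, 7.74 and 4.13 FPKM after FSH and FBS, against 4.24 and 3.73 FPKM in untreated libraries 1 and 2, and was not listed in untreated library 3, so it was not tested. Tm7sf2, a sterol C14 reductase, was listed in no library, and the first exons at its start were listed under its neighbour Zfpl1.

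**Figure D3:**
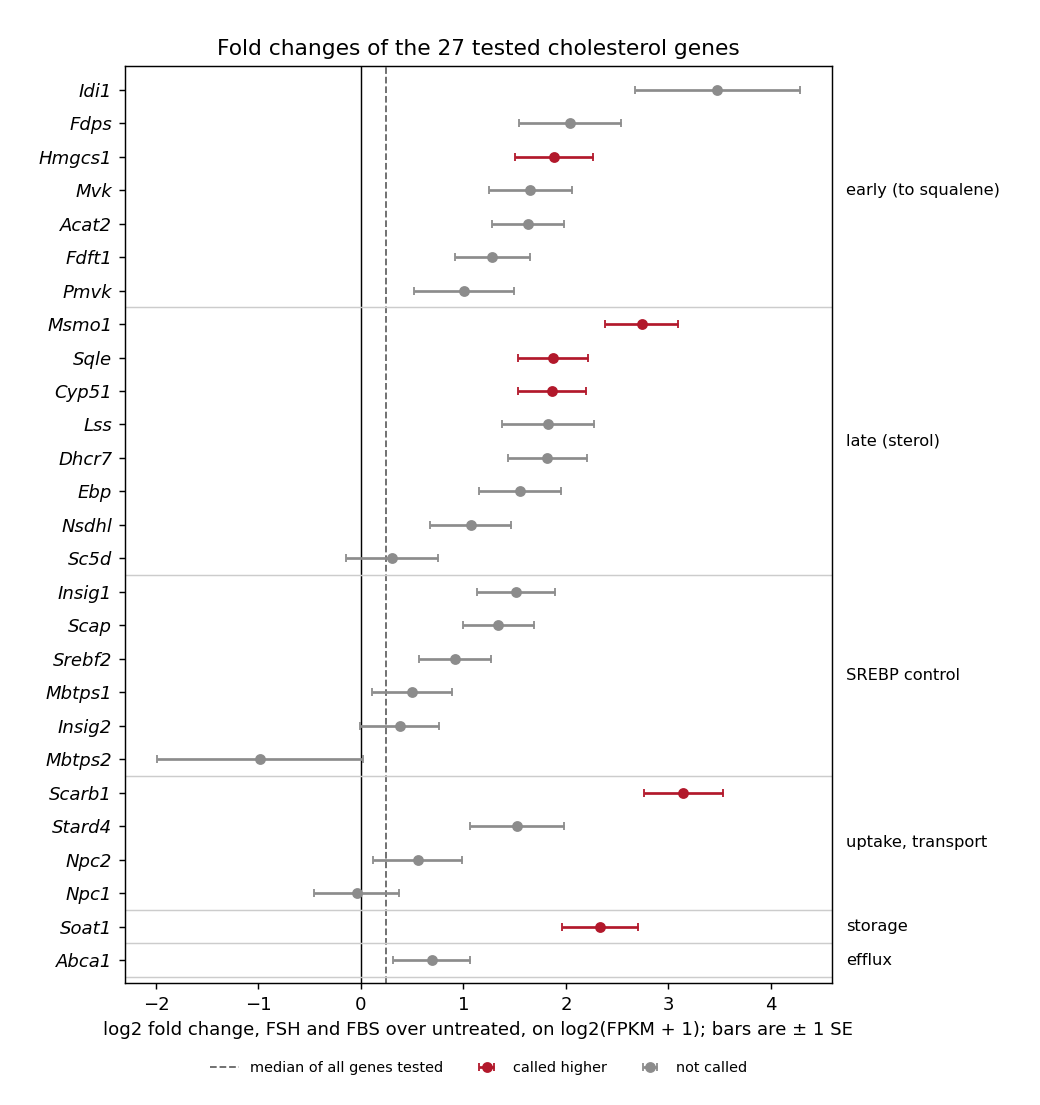
Log2 fold change on log2(FPKM + 1), FSH and FBS over untreated, with bars of 1 SE, for the 27 tested genes grouped by step and ordered within it (n = 2 samples per group). Red marks the 6 genes called higher, the dashed line is the median of all genes at 0.24, and the widest bar is that of Mbtps2 at -0.98 with an SE of 1.01.

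None of the 6 tested genes of SREBP control passed (0 higher and 0 lower, 3 at an unadjusted p below 0.05), and their median log2 fold change was 0.71. With a replicate block on the averaged samples, Insig1 (limma adjusted p = 0.0030), Scap (0.014) and Srebf2 (0.0499) passed, all higher. The labels do not state that pairing, and the same fit called 1040 of all 9022 genes higher (11.5%). With so few samples it leaves little from which to estimate the spread. Under each rescaling of the libraries Insig1, Scap and Srebf2 were not called. Srebf2, which encodes SREBP2, had 34.7, 35.2 and 25.6 FPKM after FSH and FBS, against 17.03, 15.9 and 14.3 FPKM in untreated cells. The 3 treated libraries were all above the untreated ones, by 1.97-fold in the means, and the log2 fold change was 0.92 (SE 0.35, limma adjusted p = 0.26). Scap, the escort, had 85.9, 79.4 and 67.2 FPKM after FSH and FBS, against 28.0, 29.2 and 29.1 FPKM in untreated cells, which were nearly equal. Its log2 fold change was 1.34 (SE 0.35, limma adjusted p = 0.10). Scap stood above Srebf2 in every library, and the ratio of their FPKM was 2.47, 2.25 and 2.63 after FSH and FBS, against 1.64, 1.83 and 2.04 in untreated cells.

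The INSIG paralogs had different values. Insig1, itself known as a target of SREBP, had 30.8, 30.3 and 18.3 FPKM after FSH and FBS, against 7.999, 7.996 and 7.32 FPKM in untreated cells. The groups did not overlap, and its log2 fold change of 1.51 (SE 0.38) had a limma adjusted p of 0.095. Insig2 had 8.06, 12.8 and 8.78 FPKM after FSH and FBS, against 8.94, 9.30 and 5.53 FPKM in untreated cells. These groups overlapped, with a log2 fold change of 0.38 (SE 0.38, limma adjusted p = 0.67). The ratio of Insig1 to Insig2 was 3.82, 2.38 and 2.09 after FSH and FBS, so Insig1 was the more abundant paralog in each. In untreated cells the ratio was 0.894, 0.860 and 1.32. The difference between the fold changes of these paralogs was not tested.

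The proteases that cleave SREBP overlapped between the groups. Mbtps1, site-1 protease, had 31.4 to 48.3 FPKM after FSH and FBS, against 21.8 to 35.1 FPKM in untreated cells, and a log2 fold change of 0.50 (SE 0.39, limma adjusted p = 0.58). Mbtps2, site-2 protease, had 14.18, 14.001 and 0.155 FPKM, against 9.75, 8.87 and 5.61 FPKM. FSH and FBS library 3 alone set its negative log2 fold change of -0.98 (SE 1.01, limma adjusted p = 0.67), which was 0.87 without that library.

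Uptake and transport were covered by 4 tested genes, of which 1 rose. Scarb1 (ENSMUSG00000037936), the HDL receptor that takes up cholesteryl esters, had 303, 284 and 205 FPKM after FSH and FBS, against 24.1, 23.9 and 29.9 FPKM in untreated cells. It had the highest mean level of the 27 genes after FSH and FBS and ranked 5 among them in untreated cells. The means were 249 ± 62.6 and 26.95 ± 4.17 FPKM (SD, n = 2 each), 9.23-fold apart, and the log2 fold change was 3.14 with an SE of 0.38 (limma adjusted p = 0.0088). Relative to the median gene it was 2.90, and the call held in all 21 alternatives, with an adjusted p of up to 0.047. First and last exons gave nearly the same value in every library, and the main first exon was listed at chr5:125340757-125341094 on the minus strand.

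The intracellular carriers did not pass. Stard4, a sterol carrier of the cytosol, had 7.13, 8.33 and 3.89 FPKM after FSH and FBS, against 1.32, 0.212 and 1.93 FPKM in untreated cells, and a log2 fold change of 1.52 (SE 0.46, limma adjusted p = 0.15). Npc1 and Npc2, which pass cholesterol out of the lysosome, overlapped between the groups. Npc2 was the most abundant of the 27 genes in untreated cells, with 101, 101 and 179 FPKM after FSH and FBS, against 78.1, 81.4 and 104 FPKM in untreated cells (log2 fold change 0.55, SE 0.43, limma adjusted p = 0.57). Npc1 had 4.44 to 9.43 FPKM, against 5.19 to 8.34 FPKM, and a log2 fold change of -0.04 (SE 0.41, limma adjusted p = 0.98), whose sign turned in 6 of 21 alternatives.

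Soat1 (ENSMUSG00000026600), the enzyme that esterifies cholesterol for storage in droplets, rose. It had 177, 131 and 119 FPKM after FSH and FBS, against 33.4, 27.8 and 22.2 FPKM in untreated cells, with no overlap. The means were 137 ± 24.7 and 26.4 ± 5.92 FPKM (SD, n = 2 each), 5.17-fold apart, and the log2 fold change was 2.33 with an SE of 0.37 (limma adjusted p = 0.020). First and last exons differed here: first exons alone gave 177, 131 and 27.3 FPKM after FSH and FBS, against 33.4, 24.3 and 20.1 FPKM in untreated cells, so that the groups overlapped (log2 fold change 1.40, limma adjusted p = 0.49). Last exons alone gave 101, 79.4 and 119 FPKM, against 22.5, 27.8 and 22.2 FPKM (log2 fold change 2.09, limma adjusted p = 0.018). The call was also lost under the 3 rescalings, with an adjusted p of 0.057 to 0.078, and without untreated library 3. Its main first exon was listed at chr1:156474148-156474331 on the minus strand.

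Of the exporters, Abca1, which loads cholesterol onto apolipoprotein acceptors, had 9.93, 10.6 and 12.2 FPKM after FSH and FBS, against 8.15, 8.08 and 5.24 FPKM in untreated cells. The treated libraries were all above the untreated ones by a margin that did not pass (log2 fold change 0.69, SE 0.38, limma adjusted p = 0.41). Abcg1, the exporter to HDL, was listed in no library. The ratio of Soat1 to Abca1 was 17.8, 12.4 and 9.80 after FSH and FBS, against 4.10, 3.44 and 4.25 in untreated cells.

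Summed over the tested genes of a step, the early enzymes had 325, 350.0 and 433 FPKM after FSH and FBS, against 85.0, 85.2 and 116 FPKM in untreated cells. The late enzymes had 310, 327 and 310 FPKM, against 69.1, 66.9 and 80.3 FPKM. For SREBP control the sums were 222, 218 and 151 FPKM, against 107, 103 and 83.7 FPKM, and for uptake and transport 420, 400 and 392 FPKM, against 112, 112 and 141 FPKM, most of the treated sum being Scarb1. In each of these sums the groups did not overlap, an order that 29.4% of all single genes tested showed. A sum follows its most abundant genes. Scap was the largest part of the treated control sums (85.9, 79.4 and 67.2 FPKM), while 3 of the 6 control genes overlapped between the groups. Msmo1 was the largest part of the late sums. Fdps made up much of the high early sum of FSH and FBS library 3.

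**Figure D4:**
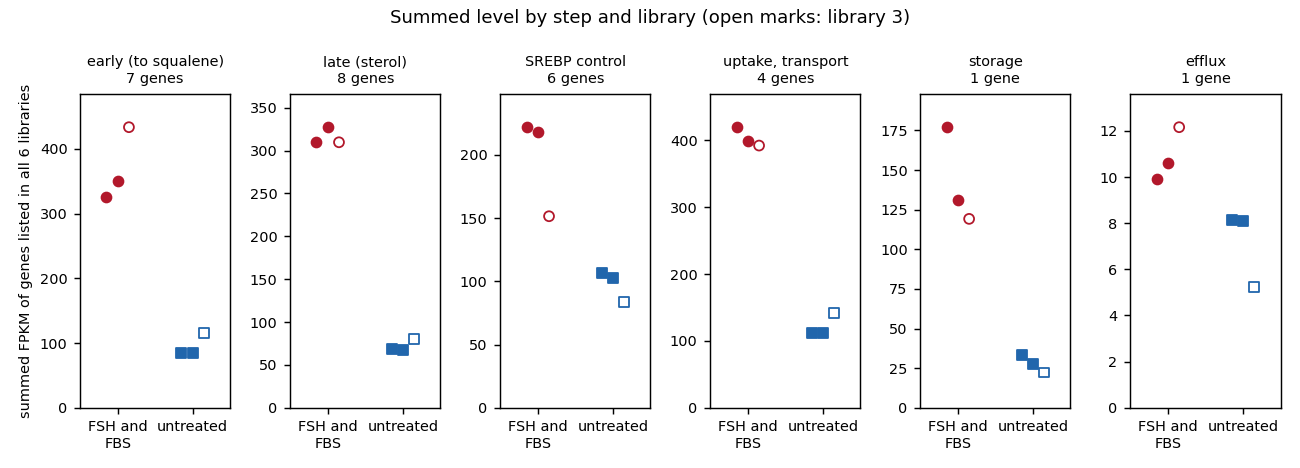
Summed FPKM of the tested genes of each step in each library, FSH and FBS (red circles) left of untreated (blue squares), library 3 as an open mark; each panel has its own axis from 0. In all 6 panels the 3 FSH and FBS libraries lie above the 3 untreated ones, from 310 to 327 FPKM against 66.9 to 80.3 FPKM for the late enzymes to 9.93 to 12.2 FPKM against 5.24 to 8.15 FPKM for Abca1.

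The 27 genes were also followed separately in the near-repeat libraries 1 and 2 and in library 3. The log2 ratio of FSH and FBS over untreated was above 0 in 27 genes in libraries 1 and 2 and in 24 genes in library 3, and above 1 in 20 and 17 genes. Over all 9022 genes tested, 6067 had a log2 fold change above 0 in the fit. Shares over all genes were not computed for the separate libraries. The counts above 0 and above 1 in the separate libraries therefore have no background, and they only describe the list. Library 3 was lower than the mean of libraries 1 and 2 in both groups in 14 genes and higher in both groups in 7. Over the 6 libraries, the profile of single genes followed the mean of all 27 (as z-scores) with a Pearson r of 0.991 to 0.997 for Acat2, Sqle, Hmgcs1, Scap, Cyp51, Insig1 and Scarb1. For Npc2 it was 0.472, for Npc1 0.158 and for Mbtps2 -0.011. These correlations describe 6 libraries in 2 groups, of which libraries 1 and 2 are near repeats, and each gene is part of the mean. Outside the list, the 5 genes most like the mean were Apobec1 (r = 0.99997), Mthfd1l (0.9994), Emilin2 (0.9991), Ddit4 (0.9986) and Slc7a1 (0.9986), picked by this r alone among all genes tested. Apobec1, for example, had 8.002, 8.33 and 5.64 FPKM after FSH and FBS, against 1.53, 1.29 and 1.23 FPKM in untreated cells.

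Introns were a further readout that the choice of genes did not use. Under the plain retained-intron event type, 11 introns were listed in 7 of the genes, and other intron event types were not read. A form that keeps the intron was listed in any library for 5 of these introns. Among these 5 is the intron at chr3:89089351-89089485 under the ID of Fdps, which lies among the exons at the place of its neighbour Rusc1. In Scap, the intron at chr9:110379832-110380201 on the plus strand was listed as kept at 5.96, 6.49 and 2.53 FPKM in untreated libraries 1, 2 and 3, or 22.0%, 23.0% and 9.67% of the kept and removed forms together. The kept form was listed in none of the FSH and FBS libraries, in which the removed form had 81.2, 77.1 and 66.8 FPKM, against 21.1, 21.8 and 23.6 FPKM in untreated cells. The files list no event at 0, so an event that is missing may have been too low to be assembled, and no test was made. In Msmo1 and Insig1 only the form without the intron was listed, in all 6 libraries.

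Genes of neighbouring branches were read in the same fit. The 49 related genes covered the isoprenoid branch, lipoprotein receptors, ester hydrolysis, sterol carriers, degradation of sterol sensors, oxysterol and LXR biology, and 6 others. Of these, 36 were tested, 1 was higher and 0 were lower, against 1.68% higher and 0.687% lower over all 9022 genes tested. Their median log2 fold change was 0.55, against 0.24 over all genes tested. The 1 gene was Lpcat3, which puts polyunsaturated chains into phospholipids and is known as a target of LXR, with 40.1, 38.4 and 49.0 FPKM after FSH and FBS, against 12.2, 13.4 and 11.4 FPKM in untreated cells (log2 fold change 1.78, SE 0.34, limma adjusted p = 0.039). This call was lost with first or last exons alone, under each of the 3 rescalings, without the intensity trend, with unlisted genes at 0 and without untreated library 3. The next by p that are reported here were not called. Tmem97, an endoplasmic reticulum protein that binds sterols, had 23.5, 23.4 and 29.1 FPKM, against 6.91, 7.59 and 11.99 FPKM (log2 fold change 1.39, limma adjusted p = 0.12). Gramd1b, which carries sterol from the plasma membrane, had 101, 119.8 and 50.9 FPKM, against 29.2, 29.9 and 21.1 FPKM (log2 fold change 1.55, limma adjusted p = 0.14). Mylip, the ligase that sends lipoprotein receptors to degradation, lay on the other side, with 1.44, 1.505 and 0.920 FPKM after FSH and FBS, against 7.01, 7.24 and 3.39 FPKM in untreated cells (log2 fold change -1.45, limma adjusted p = 0.15). By branch, the medians were 0.49 over 9 isoprenoid genes, 0.02 over 5 lipoprotein receptors and adaptors, 0.62 over 6 sterol carriers and 0.74 over 6 genes of sensor degradation. They were 0.66 over 2 genes of ester hydrolysis, 0.48 over 6 oxysterol and LXR genes and -0.22 over 2 other genes. The median was 1.82 over the 15 tested enzymes of cholesterol synthesis. The difference between these medians was not tested.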

How the data were processed

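Total RNA of 6 cumulus cell libraries was sequenced; the small-RNA libraries were not analysed here. Per the submitters' processing notes, alignment used HISAT2 2.0.1; no source used here names the assembler, and the genome build is not given in the sources used here. Per the file headers, the deposited tables give FPKM per transcript event (first exon, last exon, exon, intron) and list none at 0. A gene's first-exon and last-exon FPKM on its main strand were summed separately and the larger sum was taken; 13281 of 13318 IDs matched a symbol. Because an event is assigned to a gene by the authors' ID alone, some IDs hold events of a neighbour. Libraries 1 and 2 of a group were averaged as 1 sample. The test was limma 3.58.1 in R 4.3.3 on log2(FPKM + 1), a scale that understates changes of low genes, with an intensity trend, two-sided, Benjamini-Hochberg adjusted at 0.05 over the 9022 genes that averaged 1 FPKM or more and were listed in each of the 6 libraries. On simulated data of 9022 genes with 2 samples per group the share recovered was 0.1% for 2-fold, 4.6% for 4-fold and 40% for 8-fold changes. Of the simulated calls, 1.95% were false. The simulated samples were drawn independently and 200 genes were changed, while same-numbered samples of the data deviated together (r = 0.51). These shares may therefore not hold for the libraries here. A gene that did not pass is not shown to be unchanged. Every tested gene of the list is named; called genes and Srebf2, Insig1, Insig2, Scap and Abca1 have a value per library, as do the called related gene and those of the 4 next by p that are reported, and the 5 genes most correlated with the list's mean are named. Other offsets, filters, scalings, exon sums, left-out libraries and a replicate block were tried. The list, the related genes and the tests were chosen with earlier results of these data known. Some genes of the pathway and of the related list are not reported here.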

Additional observations from a re-analysis of the deposited data

How the results depend on the processing

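Of 27 tested cholesterol genes 6 were called higher, and 0 were lower under any of 20 other settings or under 1 chosen after seeing the data (the highest single end event per gene: 8 higher). The count was 2 with first exons alone (all genes: 42 higher, 21 lower; related genes 0). Rescaling gave 2 in each case: by median of ratios (all genes 49 and 41, median of the 27 genes 1.29), equal sums (59 higher, median 1.26) and quantiles (94 higher, median 1.32), with 0 related genes called in each. Related genes called were also 0 with last exons alone and without the intensity trend, and 2 with unlisted genes at 0, among them Soat2 (named after its values were seen), under whose ID a first exon lies at Igfbp6. With all 6 libraries as separate replicates, which counts near repeats as replicates, 19 were higher (all genes 973 and 350, related 9). Leaving out 1 library gave 2 to 14 higher, 60 to 272 and 41 to 112 over all genes, and 0 to 3 related genes. Without FSH and FBS library 3 there were 14 and without untreated library 3 there were 2; the cause was not tested. The difference between the medians of the 27 and of all genes stayed at 1.23 to 1.48 in every alternative. Npc1 had 1.24 with first exons alone, 0.0020 with 6 libraries separate or blocked and -0.27 to 0.33 with 1 library left out; untreated library 3 had 0.163 FPKM by first exon and 5.19 by last exon. Mbtps2 had -1.30 to 0.87 with 1 library left out.

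A replicate block gave 20 higher with averaged samples (all genes 1040 and 407, related 11) and 20 with 6 libraries (1516 and 584, related 13), median 1.61 in the second. Same-numbered libraries deviated together (r = 0.32, 0.31 and 0.51), but FSH and FBS library 2 correlated best with untreated library 1 (r = 0.33) and the near repeats leave 2 pairs (r = 0.51), so the pairing is a hint from the data and not from the design.

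The depth is unknown, so no counting error can be given. With 2 samples per group, changes of 4-fold were mostly missed in simulation.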
